A study of Mus musculus with 10 samples.

Results

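The epithelial identity genes examined here are 10 genes that mark glandular and ductal epithelium: the keratins Krt7, Krt8, Krt18 and Krt19, the adhesion molecules Epcam and Cdh1, the tight junction protein Cldn4, the surface mucin Muc1, and the transcription factors Sox9 and Pdx1. They were taken by symbol from the 37417 genes of the count table, and all 10 were found there. Their levels were read in 10 subcutaneous (s.c.) tumors of Panc02, a mouse pancreatic cancer cell line, grown in C57BL/6J mice. The injected cells expressed a guide RNA targeting Cda, which encodes cytidine deaminase, in the 5 sgCda tumors, and a nontargeting control guide in the 5 sgNT tumors. Both groups shared doxycycline-inducible Cas9 delivered by lentivirus, wild-type hosts labelled as 12 weeks old, injection into the right flank and collection on day 16. The sources used here do not say whether the sequenced tumors came from a bulk population or from clones, and an s.c. tumor lacks the pancreatic surroundings of the line's origin. The comparison asks what differs in the tumor when Cda is targeted in the cancer cells.

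Simple epithelia build their intermediate filaments from paired keratins, in which KRT8 of one type joins KRT18 or KRT19 of the other. E-cadherin, encoded by Cdh1, binds neighbouring cells through the catenins, and claudins seal the tight junctions above it. PDX1 and SOX9 act early in pancreatic development, and SOX9 remains a mark of adult ducts. Carcinoma cells that take on mesenchymal features can lose these genes, and the SNAI and ZEB repressors that act in that process read the letters CAGGTG, called an E-box.

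On GRCm38 (GENCODE vM21) the type II keratins Krt7 (chr15:101411043-101430313) and Krt8 (chr15:101996698-102004482) and the type I keratin Krt18 (chr15:102028180-102032027) lie close together on chromosome 15, with Krt8 on the minus strand. Krt19 (chr11:100140810-100148665, minus strand) and Sox9 (chr11:112782224-112787760) are on chromosome 11, and Cldn4 (chr5:134945119-134946934, minus strand) and Pdx1 (chr5:147269959-147275848) on chromosome 5. Epcam lies at chr17:87635979-87651129, Cdh1 at chr8:106603351-106670246 and Muc1 at chr3:89229057-89233381. All are protein coding, and Cldn4 has a single exon. Krt7 and Krt8 each overlap a gene on the opposite strand by a short stretch, and a processed pseudogene of Krt8 is annotated. None of these 3 had a row in the table. Reads that align to several places were not counted, so the level of Krt8 is uncertain to that extent.

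The sequences just upstream of 4 members are shown. Krt8 and Krt18 were the highest members, and Epcam and Cldn4 were among the 4 lowest. Muc1 and Krt7, which are not shown, lay between Epcam and Cldn4. Each is the 250 bases before the RefSeq start (GRCm38.p6), written 5′ to 3′ on the gene's strand, with CAGGTG or its reverse complement CACCTG in capitals.
Krt8 (chr15:102004343-102004592, minus strand): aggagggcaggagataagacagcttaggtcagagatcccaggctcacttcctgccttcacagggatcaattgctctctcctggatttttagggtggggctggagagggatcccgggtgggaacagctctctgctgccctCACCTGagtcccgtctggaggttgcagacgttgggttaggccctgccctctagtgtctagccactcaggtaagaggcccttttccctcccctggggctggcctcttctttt
Krt18 (chr15:102027966-102028215, plus strand): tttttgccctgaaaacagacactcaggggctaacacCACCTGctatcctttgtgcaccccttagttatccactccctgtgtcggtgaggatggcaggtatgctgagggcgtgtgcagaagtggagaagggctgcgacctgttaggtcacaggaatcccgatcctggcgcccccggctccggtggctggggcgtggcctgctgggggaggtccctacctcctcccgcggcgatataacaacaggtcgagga
Epcam (chr17:87635729-87635978, plus strand): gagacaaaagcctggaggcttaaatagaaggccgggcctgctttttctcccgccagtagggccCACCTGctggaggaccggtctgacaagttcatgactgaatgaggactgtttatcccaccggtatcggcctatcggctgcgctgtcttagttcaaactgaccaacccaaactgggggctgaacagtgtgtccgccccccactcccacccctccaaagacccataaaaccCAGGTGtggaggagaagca
Cldn4 (chr5:134946935-134947184, minus strand): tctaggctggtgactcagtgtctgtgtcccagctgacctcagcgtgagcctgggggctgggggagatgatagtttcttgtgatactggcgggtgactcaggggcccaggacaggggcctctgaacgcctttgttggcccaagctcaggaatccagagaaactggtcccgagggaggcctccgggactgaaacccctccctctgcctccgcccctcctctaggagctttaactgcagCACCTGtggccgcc
Windows of 250 bases before to 50 after the start were given for 7 members, and none was used for Krt19, Cdh1 or Sox9. An E-box in either orientation was found in all 7 windows. The 6 letters were chosen after these windows had been read, so the count of 7 carries no weight as evidence. Across all 32851 windows, 20.2% held the motif. Counted by gene, 22.6% of 27025 genes held it in any window, as did 17 (41.5%) of the 41 other epithelial genes listed below that had a window. In Krt8 the match began 111 bases before the start, and in Krt18 it began 214 bases before. In Epcam there were 2 matches, 187 and 19 bases before the start. In Cldn4 1 match lay 14 bases before the start, and another began at base 12 after it. Of the windows not shown, Krt7 held 1 match, 44 bases before the start. Matches began 234 and 70 bases before the start in Muc1, and 122 bases before it in Pdx1. Whether the number or place of matches goes with level was not tested. A match is a run of letters and does not show binding.

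The libraries held 28051907 to 39484964 counts assigned to genes. Cda itself was measured at 10.1, 11.7, 12.8, 14.7 and 11.1 CPM (counts relative to library size, scaled by trimmed mean of M values) in sgNT tumors 1 to 5, and at 8.34, 8.43, 12.1, 7.48 and 12.5 CPM in sgCda tumors 1 to 5. The groups overlapped, with a log2 fold change (sgCda minus sgNT) of -0.30 ± 0.17 (SE), so Cda counts did not separate the groups in this tissue RNA. The paper checked silencing by quantitative PCR and western blot. In sorted cells of its Panc02 tumor model it also found Cda in endothelial cells and, to some extent, in fibroblasts. The part of host cells in the counts above was not tested, and these counts do not measure the editing itself. Skeletal muscle genes summed to between 1.55 and 2137 CPM, the highest in sgCda tumor 3. Keratinocyte genes summed to 40.6 CPM in sgNT tumor 4, 4.54 times the median of the other 9 tumors of both groups. The lowest sgNT sum was 8.91 CPM, and the highest sgCda sum was 13.1 CPM. Adipocyte genes summed to 455.7 CPM in sgCda tumor 2, 6.96 times the median of the other 9. The part of such tissue in the results was not tested.

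The members spanned more than 3 orders of magnitude once counts were divided by exon length (CPM per kb). Krt8 averaged 237 ± 48.2 CPM per kb (SD, n = 10 tumors) and Krt18 159 ± 36.2. These keratins ranked 141 and 225 among 20171 protein-coding genes. Krt8 was above Krt18 in 10 of 10 tumors, although their ranges over tumors overlapped. Their ratio per kb lay between 1.13 and 1.77, with a median of 1.49.

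The transcription factors came next. Pdx1 averaged 25.0 ± 3.71 CPM per kb and Sox9 16.0 ± 3.74, and Pdx1 was the higher in 9 of 10 tumors. Krt19, the keratin typical of pancreatic ducts, followed at 8.28 ± 3.28 CPM per kb, below Sox9 in 10 of 10 tumors, or in 9 of 10 by the length of the longest coding transcript. Cdh1 averaged 3.74 ± 0.599 CPM per kb and was below Krt19 in every tumor.

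A step of 5.86 times separated Cdh1 from the 4 lowest members. Epcam, an adhesion molecule of most carcinomas, averaged 0.638 ± 0.344 CPM per kb and Muc1 0.460 ± 0.154. This pair was not ordered, since Epcam exceeded Muc1 in 6 of 10 tumors. Krt7, a keratin of ducts, averaged 0.0968 ± 0.0920 CPM per kb (0.167 by the length of its longest coding transcript), and 68.0% of protein-coding genes lay above it. Cldn4 averaged 0.0621 ± 0.179 CPM per kb. So keratins 8 and 18 stood among the most abundant messages of these tumors, whereas Krt7 and Cldn4, which accompany them in ductal epithelium, stood near the lower limit of counting.

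**Figure D1:**
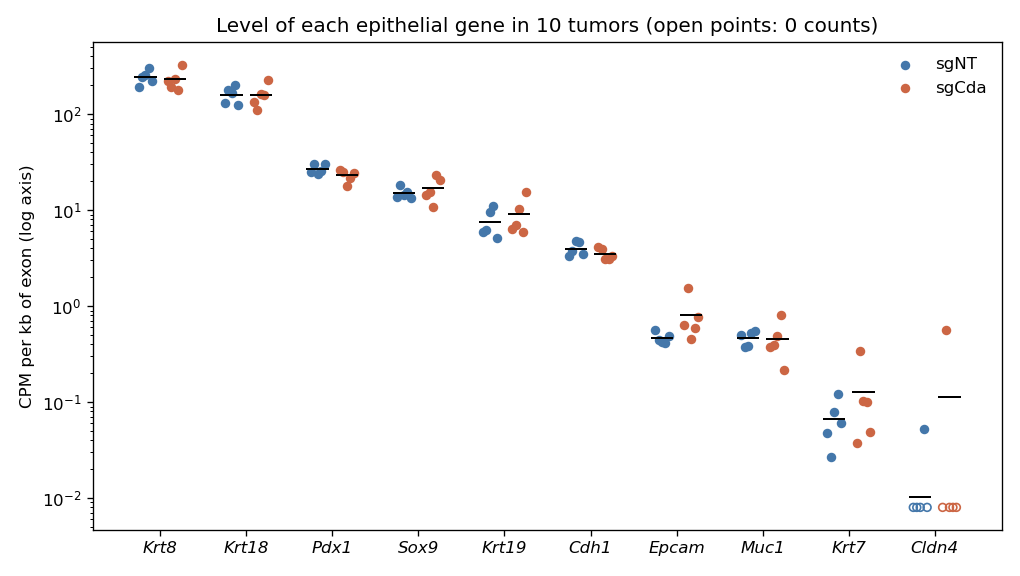
Level of the 10 genes in each tumor, in CPM per kb of exon on a log axis, with sgNT tumors in blue, sgCda tumors in orange and group means as black bars (n = 5 tumors a group). Krt8 at 237 and Krt18 at 159 CPM per kb on average stand apart from the rest, and Cldn4 has 0 counts in 8 tumors, drawn as open points at the bottom edge.

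Krt8 was measured at 376, 477, 500, 591 and 437 CPM in sgNT tumors 1 to 5. In sgCda tumors 1 to 5 it was measured at 433, 374, 456, 353 and 645 CPM. The groups overlapped throughout, and both extremes were sgCda tumors. The log2 fold change was -0.08 ± 0.17 (SE), with a 95% interval from -0.45 to 0.29.

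Krt18, its partner, was measured at 187, 258, 237, 289 and 181 CPM in the sgNT tumors and at 192, 157, 236, 229 and 325 CPM in the sgCda ones. Its lowest value was in sgCda tumor 2 and its highest in sgCda tumor 5, which was also highest in Krt8. The log2 fold change was -0.02 ± 0.19, with a 95% interval from -0.43 to 0.40. For both keratins the interval left out a change of 1.5-fold in either direction.

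Krt19 was measured at 10.9, 11.4, 17.5, 20.5 and 9.45 CPM in the sgNT tumors and at 11.7, 13.1, 19.1, 11.1 and 28.8 CPM in the sgCda tumors. The highest value was again in sgCda tumor 5. Its log2 fold change was 0.26 ± 0.30, and its interval, from -0.40 to 0.92, was wider than those of Krt8 and Krt18.

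Over the 10 tumors Krt8 and Krt18 had a Pearson r of 0.81 (permutation p = 0.0044, 0.092 adjusted over 36 pairs of members) and a Spearman rho of 0.83 (permutation p = 0.0050, adjusted 0.18). Without sgNT tumor 4 and sgCda tumor 5, the tumors farthest from the median of Krt8, r was 0.53. Krt8 and Krt19 had an r of 0.80 (permutation p = 0.0051, adjusted 0.092) and a rho of 0.68 (permutation p = 0.034, adjusted 0.42), with r at 0.45 without the same tumors. No pair of the 36 passed an adjusted p of 0.05. Without sgCda tumor 4 the Krt8 and Krt18 pair had an r of 0.94 and an adjusted exact permutation p of 0.0053.

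**Figure D2:**
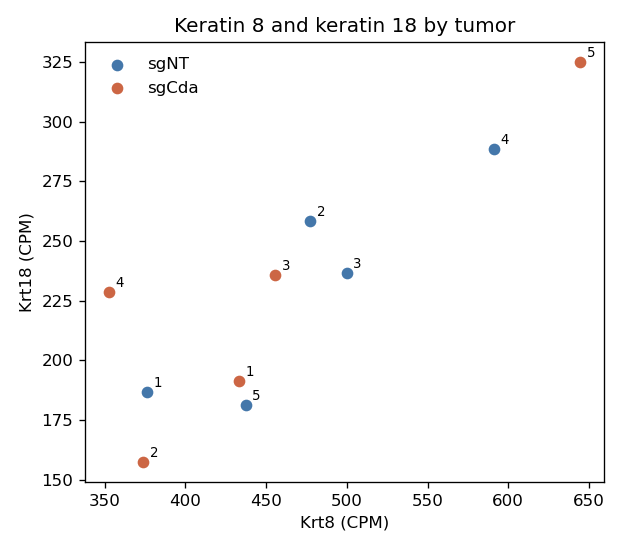
Krt18 against Krt8 in CPM, 1 point per tumor, with the replicate number beside each point and sgNT in blue and sgCda in orange. The points run together from low to high (r = 0.81 on log2 values), with sgCda tumor 5 highest in both genes and sgCda tumor 4 set off to the left.

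Pdx1 was measured at 54.0, 65.4, 51.4, 55.1 and 65.2 CPM in the sgNT tumors and at 57.2, 53.5, 38.4, 46.3 and 52.8 CPM in the sgCda tumors. All 5 sgCda tumors lay below the sgNT mean of 58.2 CPM, but the groups overlapped. Its log2 fold change was -0.23 ± 0.11, with a 95% interval from -0.48 to 0.02 (edgeR adjusted p = 1.00). Without sgCda tumors 3 and 4 together it was -0.10.

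Sox9 was measured at 57.0, 76.3, 58.8, 64.4 and 55.2 CPM in the sgNT tumors and at 59.7, 63.4, 44.6, 96.0 and 85.8 CPM in the sgCda tumors. The sgCda tumors held both ends of its range, with tumor 3 lowest and tumors 4 and 5 highest. Its log2 fold change was 0.16 ± 0.19, with an interval from -0.24 to 0.57. It was 0.02 without sgCda tumor 4 and 0.29 without sgCda tumor 3. Among 54 pairs of a member with 1 of 6 host cell lists, Sox9 with the macrophage list had an r of -0.82 (permutation p = 0.0038, adjusted 0.12) and a rho of -0.68 (permutation p = 0.035, adjusted 0.88), and r was -0.65 without the 2 tumors farthest in that list. Sox9 with the T cell list had an r of -0.82 (permutation p = 0.0045, adjusted 0.12) and a rho of -0.60 (permutation p = 0.074, adjusted 0.88), and -0.62 without its 2 farthest tumors. In whole tumors, fewer cancer cells and less RNA per cell cannot be told apart.

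Cdh1 was measured at 15.1, 17.1, 21.6, 21.1 and 15.9 CPM in the sgNT tumors and at 18.9, 17.9, 14.0, 14.2 and 15.2 CPM in the sgCda tumors. The groups overlapped, with 1 of 5 sgCda tumors above the sgNT mean. Its log2 fold change was -0.18 ± 0.13, with an interval from -0.47 to 0.11.

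Epcam was measured at 1.25, 0.979, 0.930, 0.911 and 1.08 CPM in the sgNT tumors, from 29 to 43 counts. In the sgCda tumors it was measured at 1.40, 3.43, 1.01, 1.31 and 1.71 CPM. The value of sgCda tumor 2, from 126 counts, was 2.01 times the next highest, and sgCda tumor 3 lay within the sgNT range. Its log2 fold change was 0.78 ± 0.32, with an interval from 0.09 to 1.48, and its edgeR quasi-likelihood p of 0.030 rose to 1.00 after adjustment over all genes tested. Without sgCda tumor 2 the log2 fold change was 0.40 and no longer passed an unadjusted p of 0.05.

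Krt7 was measured at 0.337, 0.190, 0.558, 0.848 and 0.427 CPM in the sgNT tumors and at 0.263, 2.42, 0.727, 0.709 and 0.348 CPM in the sgCda tumors. Its highest value was also in sgCda tumor 2, at 2.85 times the next tumor. The log2 fold change was 0.92 ± 0.60, and 0.12 without that tumor. Muc1 was measured at 1.18, 0.884, 0.899, 1.23 and 1.28 CPM in the sgNT tumors and at 0.875, 0.925, 1.15, 1.88 and 0.506 CPM in the sgCda tumors. It did not follow Epcam and Krt7, since sgCda tumor 4 held its highest value and sgCda tumor 5 its lowest. The log2 fold change of Muc1 was -0.04 ± 0.31, with an interval from -0.73 to 0.64.

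Cldn4 had 38 counts in sgCda tumor 2, 3 counts in sgNT tumor 4 and 0 counts in the other 8 tumors, and was the only member below the filter on low counts. A count of 0 allows up to 3 counts, which is 0.0760 to 0.107 CPM by library totals here (counting error only). Cldn4 was thus detected clearly in 1 tumor.

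sgCda tumor 2 therefore held the highest Epcam, Krt7 and Cldn4. Among all genes tested, 48 (0.314%) had their highest value in this tumor at more than 2-fold above the next, as did Epcam and Krt7 of the 9 members tested, a rule chosen after the values were seen. The same count was 135 in sgCda tumor 3, 422 in sgCda tumor 4 and 1 to 8 in the others. Of the genes listed beside the members, Foxa1, a pioneer transcription factor of several glandular epithelia, had 51 counts in sgCda tumor 2 and at most 4 elsewhere, and Prlr, the prolactin receptor, 351 counts and at most 32 elsewhere. Of the milk protein genes listed, Csn1s1 and Csn2 had 0 counts in every tumor, Csn1s2a at most 1, Wap at most 2 and Lalba at most 8. Csn3 had 14 to 99 counts and was highest in sgCda tumor 5. The 8 mammary genes listed, Prlr included, summed highest in sgCda tumor 2, at 11.4 CPM, of which Prlr gave 9.55. That sum was 4.01 times the median of the other 9 tumors. Their mean log2 CPM was also highest there, at -2.23, against -2.28 in sgCda tumor 4. The part of mammary tissue in this tumor was not tested. Among the epithelial lists given below, mean log2 CPM was highest in sgCda tumor 2 for tight junctions (2.01, others 1.41 to 1.69). The same held for regulators of epithelial identity (-0.756, others -1.76 to -1.28) and ductal genes (-1.37, others -1.81 to -1.44). It did not hold for the remaining ones, and the other simple and ductal keratins were at -0.974, lower only in sgCda tumor 4. The adipocyte genes named above were also highest in sgCda tumor 2, and their part in the Epcam, Krt7 and Cldn4 values was not tested. In contrast, Krt18 was lowest in this tumor and Krt8 second lowest.

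**Figure D3:**
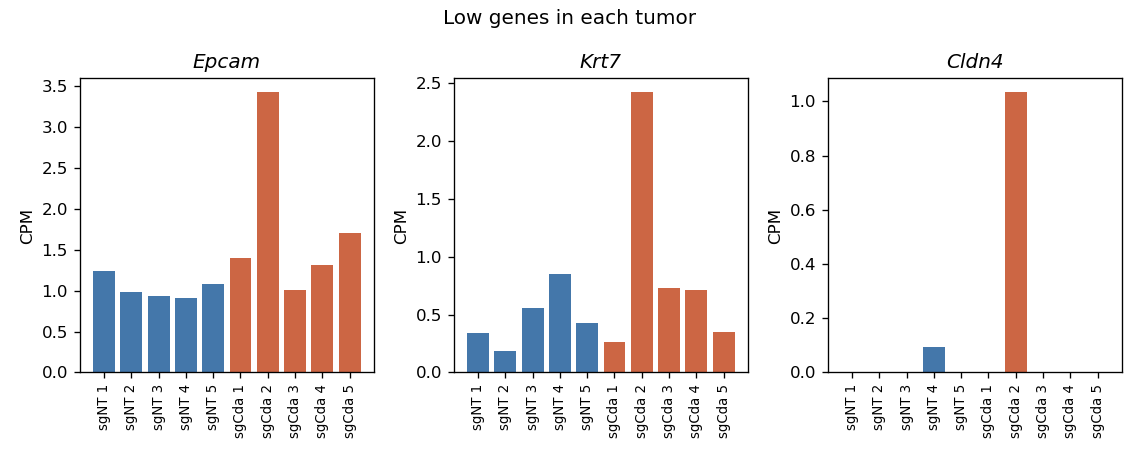
Epcam, Krt7 and Cldn4 in CPM in each of the 10 tumors, with sgNT bars in blue and sgCda bars in orange and axes starting at 0. sgCda tumor 2 holds the highest bar for each gene, at 3.43 CPM for Epcam, 2.42 for Krt7 and 1.03 for Cldn4.

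Of 15299 genes tested between the groups by edgeR's quasi-likelihood test, 0 had an adjusted p under 0.05 (0% of genes), and 382 (2.50%) had an unadjusted p under 0.05. DESeq2 also gave 0 adjusted calls and 433 unadjusted ones. Of the 9 members tested, 0 passed the adjusted threshold and Epcam alone passed the unadjusted one. Groups did not overlap for 0 members, against 92 genes (0.601%) in all. In 4 members the log2 fold change was positive and in 5 negative, with a median of -0.02, where the median over all genes tested was 0.01.

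**Figure D4:**
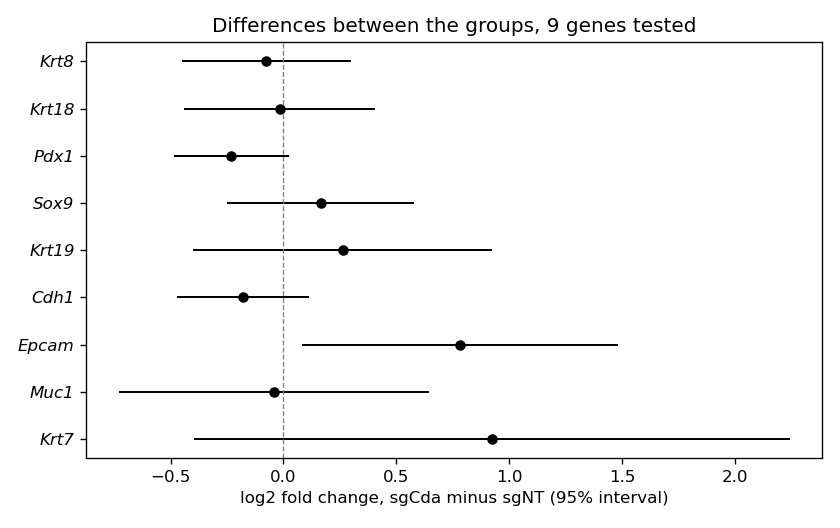
Log2 fold change (sgCda minus sgNT) of the 9 genes tested, as points with 95% intervals from edgeR, ordered by level. The intervals of 8 genes include 0 and that of Epcam runs from 0.09 to 1.48, but no adjusted p passed 0.05.

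The surrounding epithelial program was read from 7 further lists with 73 genes, of which 72 were in the table, 31 fell below the filter and 41 were tested. Among these, 0 passed an adjusted or an unadjusted p of 0.05 (edgeR), 23 had a positive and 18 a negative log2 fold change, and the median was 0.03. Leaving out sgCda tumor 3 brought 3 of them under an unadjusted p of 0.05 and none under an adjusted one.

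The cytoplasmic partners of E-cadherin were abundant. Ctnnb1, encoding β-catenin, averaged 97.3 CPM per kb and Ctnna1, encoding α-catenin, 60.2, both far above Cdh1 itself. As with every list here, these are levels of whole tumors, and the share of host cells in them was not tested. Ctnnd1, encoding p120 catenin, had the smallest p of the adherens junction list, with a log2 fold change of -0.16 ± 0.08 (edgeR adjusted p = 1.00).

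In the tight junction list the scaffold Tjp1 averaged 71.2 CPM per kb and the adhesion receptor F11r 29.1. The claudins listed were at unequal levels. Cldn12 averaged 8.73 and Cldn1 4.0 CPM per kb, while Cldn3 and Cldn7, typical of glands, were low at 0.865 and 0.681.

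Among desmosome genes the plakin Ppl led with 16.0 CPM per kb, and Pkp2, a plakophilin, had the smallest p, with a log2 fold change of 0.31 ± 0.21 (edgeR adjusted p = 1.00). Dsp, the desmoplakin gene, had 112 counts in sgNT tumor 4 and at most 26 elsewhere. Of the 14 keratinocyte genes listed, all but Trp63 and Dsg3 were highest in that tumor too. Among them were Krt5 (62 counts, at most 7 elsewhere), Lor (170, at most 6) and Krtdap (176, at most 3). Trp63 was highest in sgCda tumor 4, and Dsg3, with at most 2 counts, in sgCda tumor 2. The part of skin in the member values of sgNT tumor 4, which held the 3 Cldn4 counts and the highest sgNT values of Krt7, Krt8, Krt18 and Krt19, was not tested.

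Of the other simple and ductal keratins, Krt80 had the highest level, at 2.12 CPM per kb, and also the smallest p of its list, with a log2 fold change of -0.21 ± 0.34 (edgeR adjusted p = 1.00). Krt20 and Krt4 stayed at 6 counts or fewer. Among surface genes Cd24a averaged 35.4 CPM per kb, and Spint1, a membrane protease inhibitor, had the smallest p, with a log2 fold change of -0.23 ± 0.18 (edgeR adjusted p = 1.00).

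Of the 9 listed regulators of epithelial identity, 3 passed the filter on low counts. Esrp1, a splicing regulator of epithelia, had 12 counts in sgCda tumor 2 and at most 3 elsewhere. Grhl2 had at most 5 counts and Ovol2 at most 1. Their relatives Grhl1, with 15 to 49 counts, and Ovol1, with 15 to 52, were counted in every tumor. Klf5 had the highest level of its list, at 2.41 CPM per kb, and the smallest p, with a log2 fold change of 0.43 ± 0.20 (edgeR adjusted p = 1.00).

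Of the 15 other pancreatic and ductal genes listed, 3 passed the filter on low counts. Foxa2 and Ptf1a, which act in the developing pancreas, had 0 counts in all 10 tumors, and Hnf4a, Nkx6-1 and the ductal chloride channel gene Cftr had at most 1 count. Spp1, encoding osteopontin, averaged 1307 CPM per kb, but macrophages also express it, and its log2 fold change was -0.05 ± 0.12.

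All 9 genes of the mesenchymal list passed the filter, at very unequal levels. Vim, encoding vimentin, averaged 448 CPM per kb and Fn1, encoding fibronectin, 481, and host fibroblasts and macrophages can contribute to both. All levels of this list are of whole tumors, and the cells they came from were not tested. The repressors Snai1, at 16.2 CPM per kb, Zeb1, at 9.33, and Zeb2, at 11.1, all lay above Cdh1 at 3.74 CPM per kb. Cdh2, encoding N-cadherin, lay below it at 0.318 CPM per kb (48 to 158 counts), as did Twist1 at 1.19 (4 to 190 counts). Of the 9 genes tested in this list 0 passed the adjusted threshold, and Twist2 had the smallest p, with a log2 fold change of -0.25 ± 0.11 (edgeR adjusted p = 1.00). The other lists, which mark keratinocytes, hair follicles, mammary, acinar, endocrine, mesothelial and cartilage cells, dendritic cells, macrophages, T cells, fibroblasts, endothelium, muscle and fat, also held 0 adjusted calls, and Prlr was their only gene under an unadjusted p of 0.05 (log2 fold change 2.16 ± 0.91).

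For each member tested, the genes most alike were taken from 10331 genes by Pearson r over the 10 tumors. Krt8 was most like Sypl (r = 0.96) and Rad23b (r = 0.96), and Krt18 most like Eif3c (r = 0.96) and Slc38a2 (r = 0.92). Krt19 was most like Dcaf10 (r = 0.93) and Bnip3 (r = 0.92), and Krt7 most like Ubfd1 (r = 0.96) and Ube2r2 (r = 0.90). Pdx1 was most like Tctn2 (r = 0.96) and St3gal2 (r = 0.95), and Sox9 most like Hist3h2a (r = 0.95) and Zbtb38 (r = 0.93). Epcam was most like Nudt7 (r = 0.90) and Wdr45 (r = 0.90), and Cdh1 most like Enpp4 (r = 0.89) and Tor1aip1 (r = 0.86). Muc1 was most like Zfp414 (r = 0.86) and a gene given without a symbol, ENSMUSG00000024671 (r = 0.85). These are the highest of many values at 10 tumors and describe these libraries only.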

How the data were processed

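RNA-seq of 10 tumors was compared as 2 groups of 5, with groups and replicate numbers from the sample titles. The authors made stranded polyadenylated RNA libraries from whole tumors, aligned the reads to GRCm38 with TopHat and Bowtie and counted them per Ensembl gene with HTSeq. The values used are the counts the authors deposited, with no normalization. The strand setting and annotation release are not given in the sources used here. HTSeq leaves out reads that align to several places or overlap several genes.

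The table held 37417 genes, of which 11115 had 0 counts in every tumor, and its 5 summary lines were dropped. Genes were filtered with filterByExpr (minimum count 10, minimum total 15), scaled by trimmed mean of M values and tested with the quasi-likelihood test of edgeR 4.0.16 (R 4.3.3), without covariates, with Benjamini-Hochberg adjustment over 15299 genes. CPM per kb used the union exon length of GENCODE vM21, with the longest coding transcript as an alternative. Correlations used log2 CPM (prior count 2) and 100000 two-sided permutations. DESeq2 1.42.0 and limma 3.58.1 were alternatives. The code was tested on simulated data. Nothing states that tumors of a group came from separate cell cultures, so p values measure the spread between these tumors.

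The members and the 22 gene lists were chosen with earlier results of these data known. Beside all members, the text names for each epithelial list the gene with the smallest p and the gene with the highest level per kb, and for each member its most similar genes (at least 3 in mean log2 CPM). Other genes named were chosen after their values were seen. Some results that this rule selects are not reported here.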

Additional observations from a re-analysis of the deposited data

Results flagged for a closer look

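Of 64 groups of 5 values examined (each member and each of the 22 gene lists in each group), 7 held a value far from the other 4 by Dixon's criterion, where chance gives about 1 in 20, or 3.2. Cldn4 met it in both groups, at 0.129 log2 CPM in sgCda tumor 2 (38 counts) and -2.69 in sgNT tumor 4 (3 counts), against -4.05 in each tumor with 0 counts. With the other 4 values identical the criterion is met whatever the size of the gap, so it says nothing here, and 3 counts are within what a count of 0 allows. In sgNT tumor 4 the mean log2 CPM was 0.471 for the keratinocyte list (others -2.53 to -2.26), 2.81 for the desmosome list (others 1.74 to 1.94) and 0.234 for the other simple and ductal keratins (others -0.871 to -0.617). In sgNT tumor 3 the T cell list was high at 5.55 (others 4.94 to 5.04) and the mammary list low at -3.04 (others -2.70 to -2.58). The sources of these values were not tested.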

How the results depend on the processing

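Adjusted calls stayed at 0 for all genes and for the members under all 19 alternatives run (other scalings, filters and tests, a replicate block, and each tumor left out). Genes at an unadjusted p under 0.05 numbered 830 with a filter of 1 count in any tumor, 719 with quality weights, 325 with the replicate block and 280 to 747 with 1 tumor left out, the highest without sgCda tumor 3. Epcam kept its direction in 19 of 19 alternatives, with an unadjusted p under 0.05 in 13. Members under that p numbered 0 to 2 with 1 tumor left out, and genes of the 7 epithelial lists 0 to 3, both added after the data were seen. Directions near 0 turned: with 1 tumor left out, Krt8 ranged from -0.24 to 0.0081, Krt18 from -0.18 to 0.094, Krt19 from -0.022 to 0.44 and Muc1 from -0.34 to 0.13; Krt8 was 0.021 without sgCda tumors 3 and 4, and Cdh1 was 0.0019 with quality weights. Krt7 was 0.15 with quality weights. Mean levels per kb of the 10 members moved by less than 1 SD with the longest coding transcript's length or with library totals. The causes were not tested. Pairs of members passing an adjusted p of 0.05 numbered 0 to 1 with 1 tumor left out, and pairs of a member with a list numbered 1 (Sox9 with macrophages, r = -0.87) with library totals. Correlations of same-numbered tumors ran from -0.43 to 0.34, and 2 of 5 matched best. With 5 tumors a group, these values neither show nor exclude a pairing by replicate number. With the block Epcam was 0.66 and no longer passed an unadjusted p of 0.05, which Pdx1, at -0.24, did. At these depths Krt7, Cldn4, Epcam and Muc1 rest on few counts.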

Other observations

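Of the 9 acinar genes listed, 1 passed the filter on low counts, Cela1 with 27 to 106 counts, while Amy2a5 and Cel had 0 counts in every tumor and Cpa1 and Cpb1 at most 1. Of the 7 endocrine genes, 1 passed, Chga with 18 to 95 counts, while Ins1, Ins2, Sst and Neurod1 had 0 counts in every tumor. Msln, a surface protein of mesothelium and of some carcinomas, averaged 20.3 CPM per kb, between Pdx1 and Sox9, with a log2 fold change of 0.36 ± 0.19 (edgeR adjusted p = 1.00), while the mesothelial gene Upk3b had at most 4 counts. Wt1 had at most 2 counts. Trp63, a basal epithelial factor, was counted in every tumor, at 69 to 120 counts, while Krt5 was below 8 counts in all tumors but sgNT tumor 4.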
